A study of Mus musculus with 4 samples.

Results

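The genes described here encode the subunits of the mitochondrial respiratory chain and of the ATP synthase, with the complex I assembly factors named Ndufaf. They were chosen by symbol in the probe annotation, as names that begin with Nduf, Cox4 to Cox8, Uqcr or Atp5, together with Sdha, Sdhb, Sdhc, Sdhd, Cyc1 and Cycs. The array held 89 such genes. Of these, 80 passed detection (p of 0.01 or less on any of the 4 arrays), out of 8674 genes that did so in all. By role they comprised 33 structural subunits of complex I, 7 Ndufaf assembly factors, 3 subunits of complex II, 7 of complex III, cytochrome c, 11 of complex IV, 16 of complex V and 2 other matches of the symbol rule. Of the 80 genes, 78 were detected on all 4 arrays, and Cox7a1 and Cox6a2 on fewer.

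Illumina mouse bead arrays measured RNA from CL4188, a conditional MYC lymphoma line of FVB/N origin in which doxycycline (DOX) switches MYC off. The groups were cells with the retroviral vector MSCV carrying miR-17-92 after DOX (20 ng/ml for 48 hours, MYC OFF), the same miR-17-92 cells with no agent (MYC ON), cells with the MSCV control vector after the same DOX treatment (MYC OFF) and control cells with no agent (MYC ON). All 4 groups were thus vector-transduced derivatives of the 1 line, with 1 array each. With single arrays, nothing below could be checked between replicates, and neither p-values nor errors are given.

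The respiratory chain moves electrons from NADH and succinate to oxygen through complexes I to IV of the inner mitochondrial membrane, with coenzyme Q and cytochrome c as mobile carriers. The protons pumped on the way drive the ATP synthase, complex V. Most subunits are encoded in the nucleus, imported and fitted together by dedicated assembly factors. MYC is known to promote mitochondrial biogenesis in growing cells, and the factors NRF1, GABP and YY1 are known regulators of nuclear genes for respiratory subunits.

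All arrays read the T-cell genes of the marker list, with 6 to 8 of the 9 on the array detected, and none of 4 B-cell or 2 erythroid genes. Of 5 myeloid genes 1, Itgam, was detected, on both DOX arrays alone, and of 3 stromal genes Pecam1 was detected on every array. These markers moved with DOX. With quantile normalization, the 6 T-cell genes detected on all 4 arrays had DOX ratios from 0.52 to 1.60 in the miR-17-92 cells and from 1.18 to 2.73 in the control cells. With median scaling these ran from 0.33 to 1.77 and from 0.79 to 2.76. With the authors' processed values they ran from 0.17 to 1.46 and from 0.63 to 2.38. Cd2 and Cd8a were detected with DOX alone. The summed linear signal of all 8 T-cell genes after quantile normalization was 109806 with DOX against 52948 without in the miR-17-92 cells. In the control cells it was 160095 against 57196. Pecam1 had ratios of 1.41 in the miR-17-92 cells and 1.91 in the control cells. The part of these marker shifts in the results below was not tested. The numbers of detected probes were 14658 and 13656 in the miR-17-92 cells with and without DOX, and 14864 and 13251 in the control cells with and without DOX. Both DOX arrays came from 1 slide and both arrays without DOX from the other, which means that slide and DOX cannot be told apart. Values below are log2 signals after quantile normalization, and each difference is a log2 ratio, in which 1 is a 2-fold change. With 2 detected probes for 1 gene, the spread per probe of the DOX ratio was 0.32 in the miR-17-92 cells and 0.33 in the control cells, over 3502 genes.

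The effect of DOX in the control cells compares the MYC OFF array with the MYC ON array. Effects of the MYC switch, of DOX itself and of the slide cannot be told apart in it. Most of the 80 genes were lower with DOX, by less than 2-fold. In bulk RNA, fewer cells expressing a gene and less of its RNA per cell cannot be told apart. Of 80 genes, 66 lay below 0, 14 above 0, and the median log2 ratio was -0.40. Of all analysed genes, 47.7% lay below and 52.2% above 0, with a median of 0.06. A decrease of at least 2-fold was reached by 17 genes, or 21.2% of them, beside 18.0% of all analysed genes, so the share of large changes was near the background. A 2-fold increase was reached by 1 gene, Cox7a2l, beside 19.9% of all genes. Scaling changed the size of this shift but not its direction. Median scaling moved the median of all genes to 0.24 and the authors' processed values moved it to -0.13. Relative to the median of all genes, the 80 genes stood at -0.46 in the values reported here, at -0.85 with median scaling and at -0.62 with the authors' values.

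The Ndufaf assembly factors, which help to build complex I and are not part of the finished enzyme, had the lowest median in the control cells of the classes with several genes. Of 7 analysed, 6 were below 0 and 4 of them by 2-fold or more (median -1.26). The 70 structural subunits of complexes I to V had a median of -0.36, with 12 at least 2-fold lower. All 7 assembly factors had a mean log2 signal under 12, and the 17 structural subunits with a mean log2 signal under 12 had a median of -0.65, with 4 at least 2-fold lower. The contrast with the subunits of complex I, whose median was -0.35, was smaller with the authors' processed values, at -1.04 for the assembly factors and -0.72 for the subunits, where complex III was at -1.04 too.

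Ndufaf4 was the lowest of all 80 genes. Its log2 signal was 10.16 with DOX against 12.51 without DOX in the miR-17-92 cells, and 9.78 against 12.45 in the control cells. This was 5.10-fold lower with DOX in the miR-17-92 cells and 6.37-fold lower in the control cells, and both DOX arrays lay below both arrays without DOX. A second, dimmer Ndufaf4 probe gave smaller ratios, -1.16 in the miR-17-92 cells and -1.10 in the control cells. Ndufaf3, which encodes a partner of NDUFAF4 in early complex I assembly, behaved otherwise. It read 8.59 with DOX against 7.58 without in the miR-17-92 cells, or 2.02-fold higher. This ratio of 1.01 was 0.70 with the authors' values, 0.72 without background correction and 0.90 with offset 50. In the control cells, where its log2 signal was 7.87 without DOX, the ratio was 0.12.

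Ndufaf2 encodes a factor also called mimitin, for MYC-induced mitochondrial protein. It read 11.12 with DOX against 11.72 without in the miR-17-92 cells, and 10.21 against 11.59 in the control cells. It was thus 1.52-fold lower with DOX in the miR-17-92 cells and 2.61-fold lower in the control cells. Its paralogue Ndufa12, a subunit that is added at the end of assembly, was the lowest structural subunit of complex I in the control cells. Ndufa12 read 11.99 with DOX against 12.90 without in the miR-17-92 cells, and 11.16 against 12.96 in the control cells, or 1.88-fold and 3.48-fold lower.

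Ndufaf5, a hydroxylase that acts on the subunit NDUFS7, read 9.95 with DOX against 10.29 without in the miR-17-92 cells, and 9.15 against 10.47 in the control cells. It was 2.49-fold lower in the control cells, and its second probe gave -1.20 in the miR-17-92 cells, where the first gave -0.34, and -1.90 in the control cells. Ndufaf7, a methyltransferase, read 8.63 with DOX against 10.16 without in the miR-17-92 cells, and 8.63 against 9.89 in the control cells. Ndufaf7 and Ndufaf1 were the assembly factors with the lower ratio in the miR-17-92 cells, -1.52 for Ndufaf7 beside -1.26 in the control cells. Ndufaf1, a member of the intermediate assembly complex with ECSIT and ACAD9, had ratios of -0.64 in the miR-17-92 cells and -0.55 in the control cells. Ndufaf8, the partner of NDUFAF5, had -0.63 in the miR-17-92 cells and -0.87 in the control cells.

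**Figure D1:**
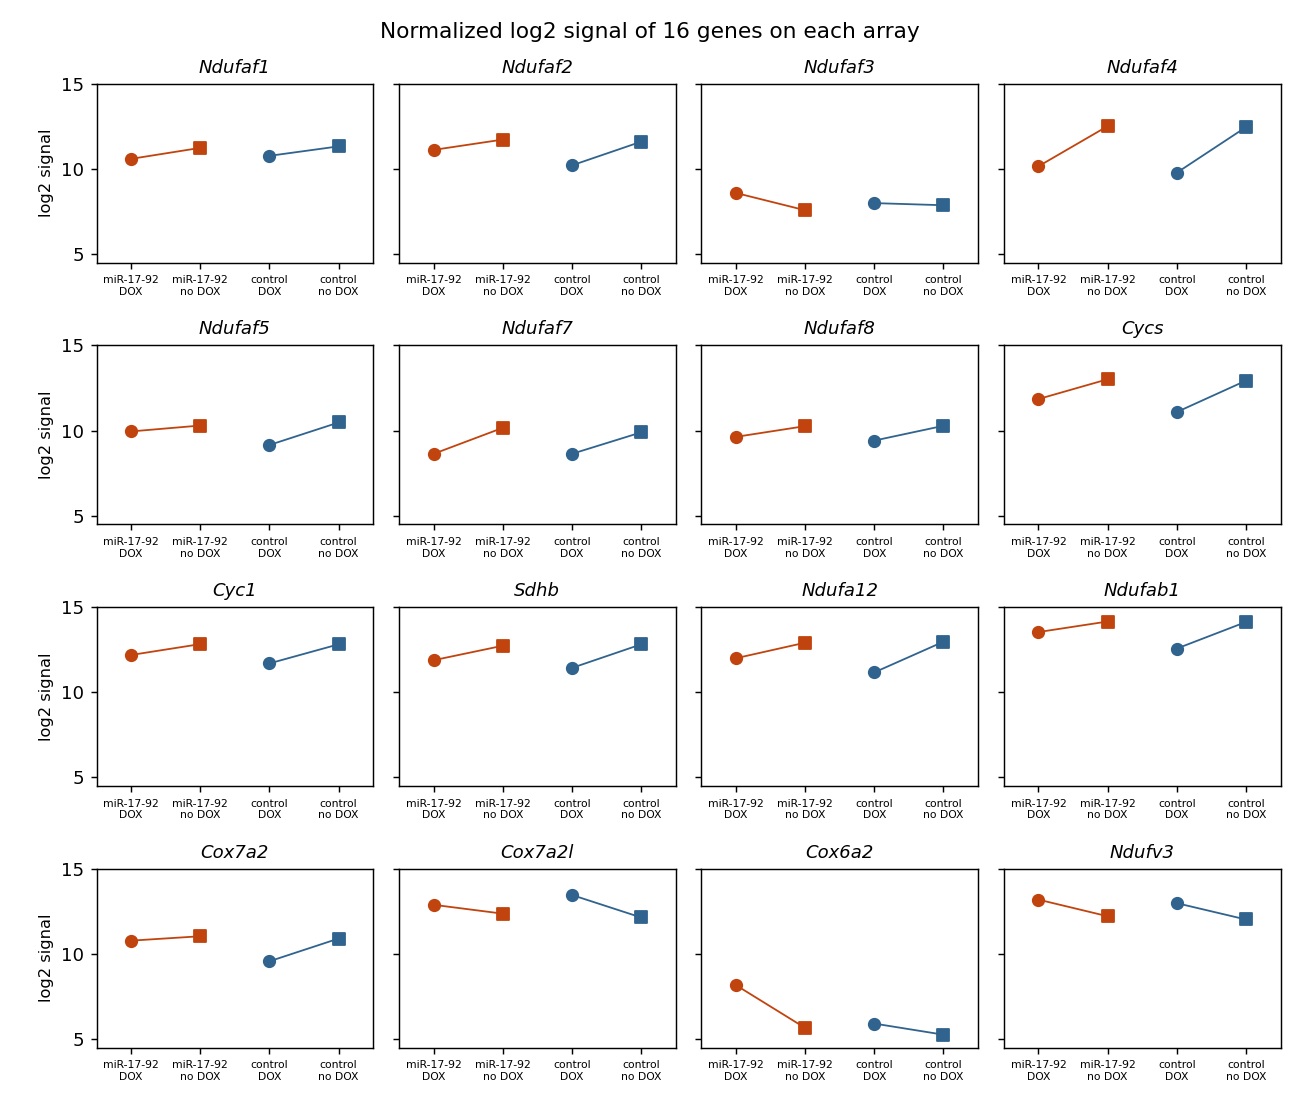
Normalized log2 signal (vertical axis) of 16 genes on each array, with miR-17-92 cells in red and control cells in blue, circles for DOX and squares for no DOX. Each point is 1 array and lines join the arrays of a line; Ndufaf4 shows the steepest decrease in both lines, and Cox6a2 reads 8.16 on the miR-17-92 DOX array and under 6 on the others.

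Complex I has 3 modules, the N module that takes electrons from NADH, the Q module that passes them to coenzyme Q and the P module in the membrane that pumps protons. All 3 had class medians below 0 with DOX in the control cells, -0.41 for 7 N module genes, -0.27 for 7 Q module genes and -0.31 for 18 P module genes. Of 33 complex I subunits, 29 were below 0 and 7 were at least 2-fold lower. Besides Ndufa12 these were Ndufab1 (-1.56), the mitochondrial acyl carrier protein, Ndufb4 (-1.18), Ndufa5 (-1.18), Ndufb2 (-1.13), Ndufs7 (-1.06), which carries an iron-sulphur cluster, and Ndufb5 (-1.01). Ndufab1 read 13.52 with DOX against 14.14 without in the miR-17-92 cells, and 12.56 against 14.11 in the control cells. Ndufab1 was read by 4 probes, with ratios from -1.84 to -1.56 in the control cells and from -0.89 to -0.53 in the miR-17-92 cells. Ndufb4 read 10.06 with DOX against 10.68 without in the miR-17-92 cells, and 9.33 against 10.52 in the control cells. Ndufb2 and Ndufb4 did not reach 2-fold with median scaling, at -0.95 and -0.96.

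A few complex I subunits ran the other way, not all of them under every scaling. Ndufv3, an accessory subunit of the N module, read 13.18 with DOX against 12.20 without in the miR-17-92 cells, and 12.97 against 12.01 in the control cells. Both DOX arrays were above both arrays without DOX, by 1.96-fold and 1.94-fold, and 2 further Ndufv3 probes were also higher with DOX in both lines, from 0.52 to 1.20. Ndufa6 read 13.82 with DOX against 13.46 without in the miR-17-92 cells, and 13.94 against 13.38 in the control cells. Ndufa13 read 14.68 with DOX against 14.21 without in the miR-17-92 cells, and 14.48 against 14.25 in the control cells. Ndufa13 also acts as a regulator of cell death, and with quantile normalization both genes were above 0 in both lines. In the control cells Ndufa13 was below 0 with median scaling (-0.22) and with the authors' values (-0.38), and Ndufa6 stood at 0.06 with the authors' values. Ndufs4, an N module subunit read by 4 probes, gave 0.29 to 0.53 in the miR-17-92 cells and 0.06 to 0.33 in the control cells. In the control cells its brightest probe turned to -0.24 with median scaling and -0.40 with the authors' values.

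Complex II, succinate dehydrogenase, was read through 3 of its 4 subunits. Sdhb, the iron-sulphur subunit, read 11.87 with DOX against 12.72 without in the miR-17-92 cells, and 11.42 against 12.80 in the control cells, or 1.80-fold and 2.61-fold lower. Its 2 other probes were lower with DOX in both lines as well, from -1.26 to -0.32. Sdhc read 13.46 with DOX against 13.43 without in the miR-17-92 cells, and 13.40 against 13.56 in the control cells. The membrane anchors stood nearer to 0, Sdhd at -0.34 and Sdhc at 0.02 in the miR-17-92 cells, and at -0.57 and -0.15 in the control cells.

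Complex III passes electrons from coenzyme Q to cytochrome c. Of its 7 analysed genes, 6 were below 0 in the control cells (median -0.65), and Cyc1, the gene of cytochrome c1, was 2-fold lower. Cyc1 read 12.18 with DOX against 12.82 without in the miR-17-92 cells, and 11.69 against 12.81 in the control cells, or 1.55-fold and 2.17-fold lower. The core subunit genes Uqcrc1 and Uqcrc2 had ratios of -0.66 and -0.57 in the control cells. These were -0.89 and -0.96 with median scaling, and passed 2-fold with the authors' values, at -1.04 and -1.11. Uqcrc1 read 13.08 with DOX against 13.13 without in the miR-17-92 cells, and 12.74 against 13.41 in the control cells. Uqcr11 read 13.73 with DOX against 14.12 without in the miR-17-92 cells, and 13.18 against 14.02 in the control cells. Uqcr11, a small subunit, was at -0.84 there, and at -1.17 and -1.32 with median scaling and with the authors' values. Uqcr10 was at -0.26, and at -0.72 and -0.87 with median scaling and with the authors' values. Uqcrh read 14.57 with DOX against 14.34 without in the miR-17-92 cells, and 14.85 against 14.34 in the control cells. Uqcrh, the hinge subunit, was at 0.23 in the miR-17-92 cells and 0.51 in the control cells. This direction depended on the scaling, with -0.08 and 0.07 under median scaling and -0.23 and -0.09 with the authors' values in the same lines.

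Cycs encodes cytochrome c, the soluble carrier between complexes III and IV that also triggers apoptosome formation when released. It read 11.85 with DOX against 13.01 without in the miR-17-92 cells, and 11.08 against 12.92 in the control cells. This was 2.23-fold and 3.58-fold lower, and both DOX arrays lay below both arrays without DOX. The other 2 Cycs probes gave -1.83 and -0.54 in the miR-17-92 cells and -1.67 and -1.09 in the control cells. Many respiratory subunit genes, Cycs among them, are known to have processed pseudogenes, and whether a probe also reads such a copy was not tested.

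Complex IV, cytochrome c oxidase, held larger and smaller ratios in the control cells. Cox7b, Cox7a2 and Cox5a passed 2-fold downward, and Cox4i1, Cox6a1, Cox6b1 and Ndufa4 lay between 0.02 and 0.10 (median of 11 genes -0.25). These 4 genes were below 0 under the other scalings, between -0.46 and -0.27 with median scaling and between -0.61 and -0.42 with the authors' values. Ndufa4 is named for complex I but is counted here in complex IV, where the protein is known to sit. Counted in complex I instead, it left the medians in the control cells at -0.31 for complex I and -0.38 for complex IV. Cox7a2 read 10.77 with DOX against 11.03 without in the miR-17-92 cells, and 9.56 against 10.89 in the control cells, or 1.20-fold and 2.52-fold lower. Cox7b read 9.90 against 10.20 in the miR-17-92 cells and 8.89 against 10.25 in the control cells, or 1.23-fold and 2.58-fold lower. On both genes the control DOX array was the low one, apart from the other 3. Cox5a read 14.55 with DOX against 14.78 without in the miR-17-92 cells, and 13.82 against 14.85 in the control cells. Here too the control DOX array was the lowest, 2.05-fold below control cells without DOX. Cox6b1 read 13.79 with DOX against 13.81 without in the miR-17-92 cells, and 13.72 against 13.64 in the control cells. Ndufa4 read 14.39 with DOX against 14.40 without in the miR-17-92 cells, and 14.36 against 14.34 in the control cells. Cox4i1 read 14.58 with DOX against 14.35 without in the miR-17-92 cells, and 14.48 against 14.39 in the control cells. With quantile normalization these 3 genes differed little between the arrays.

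Subunits with tissue-specific forms differed by form. Cox6a2, the heart and skeletal muscle form of subunit VIa, was detected only on the miR-17-92 DOX array, where it read 8.16 against 5.65 without DOX, and it read 5.91 and 5.26 in the control cells with and without DOX. With quantile normalization it was at least 3.19-fold higher with DOX in the miR-17-92 cells. With DOX it was then at least 4.04-fold higher there than in control cells. With the authors' values its log2 ratios in these 2 comparisons were 1.18 and 1.45, smaller than both bounds. It entered the analysis through that 1 array alone. Its widely expressed counterpart Cox6a1 had ratios of 0.56 in the miR-17-92 cells and 0.03 in the control cells. Cox7a1, the muscle form of subunit VIIa, was detected on 3 arrays. With quantile normalization it had 1.74-fold less signal with DOX in the miR-17-92 cells, and in the control cells it was at least 1.47-fold lower. Its log2 ratios were smaller with median scaling, -0.42 in the miR-17-92 cells and -0.44 in the control cells. Its raw signals were low, from 162 to 270, beside array medians of 119 to 160. The probes of Cox4i2, Cox6b2, Cox7b2, Cox8b and Cox8c were not detected on any array.

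Cox7a2l is related to Cox7a2 in sequence and encodes a factor that joins complexes III and IV into supercomplexes. It alone of the 80 genes passed 2-fold upward in the control cells. It read 12.87 with DOX against 12.35 without in the miR-17-92 cells, and 13.45 against 12.13 in the control cells, or 1.43-fold and 2.49-fold higher. With the authors' processed values its control ratio was 0.91, under 2-fold. The other match of the symbol rule was Ndufs5-ps, annotated as a transcribed pseudogene, with ratios of 0.17 in the miR-17-92 cells and -0.76 in the control cells, and whether its probe also reads Ndufs5 was not tested.

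Complex V, the ATP synthase, held no 2-fold change in the control cells with quantile normalization. Of its 16 genes, 14 were below 0 and the median was -0.28. This median was -0.58 with median scaling and -0.73 with the authors' values. The medians were -0.38 for 5 genes of the catalytic F1 part, -0.22 for 4 of the peripheral stalk and -0.28 for 7 of the membrane part Fo. Atp5md, a small Fo subunit, was lowest at -0.89, Atp5e, the epsilon subunit, stood at -0.72 and Atp5mpl, another small Fo subunit, at -0.66. Atp5md read 9.80 with DOX against 9.84 without in the miR-17-92 cells, and 8.87 against 9.76 in the control cells. Atp5e read 10.77 with DOX against 10.64 without in the miR-17-92 cells, and 9.99 against 10.71 in the control cells. The control DOX array was the low one on both. Atp5mpl passed 2-fold with median scaling, at -1.07, and with the authors' values, at -1.22. Atp5o, at -0.61 with quantile normalization, did so too, at -1.08 and -1.23. Atp5j2 (0.27) and Atp5h (0.14), a stalk subunit, were above 0, but below 0 with median scaling (-0.23 and -0.27) and with the authors' values (-0.38 and -0.42). Atp5j2 read 15.30 with DOX against 14.86 without in the miR-17-92 cells, and 15.15 against 14.87 in the control cells. On both genes the miR-17-92 DOX array was the highest. Atp5g2 and Atp5g3, which encode the same mature c subunit of the rotor ring with different import signals, had ratios of 0.34 and -0.05 in the miR-17-92 cells and -0.23 and -0.26 in the control cells. The raw signals of Atp5b, the catalytic beta subunit, and Atp5g3 reached 96.3% to 99.2% of the highest raw signal of their array without DOX, and 64.3% to 89.1% with DOX. Their ratios rest on the top of the scale, and the part of that in their small size was not tested. The size also changed with the scaling. In the control cells both were at -0.26 with quantile normalization. Atp5b was at -0.65 with median scaling and -0.80 with the authors' values, and Atp5g3 at -0.55 and -0.70.

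**Figure D2:**
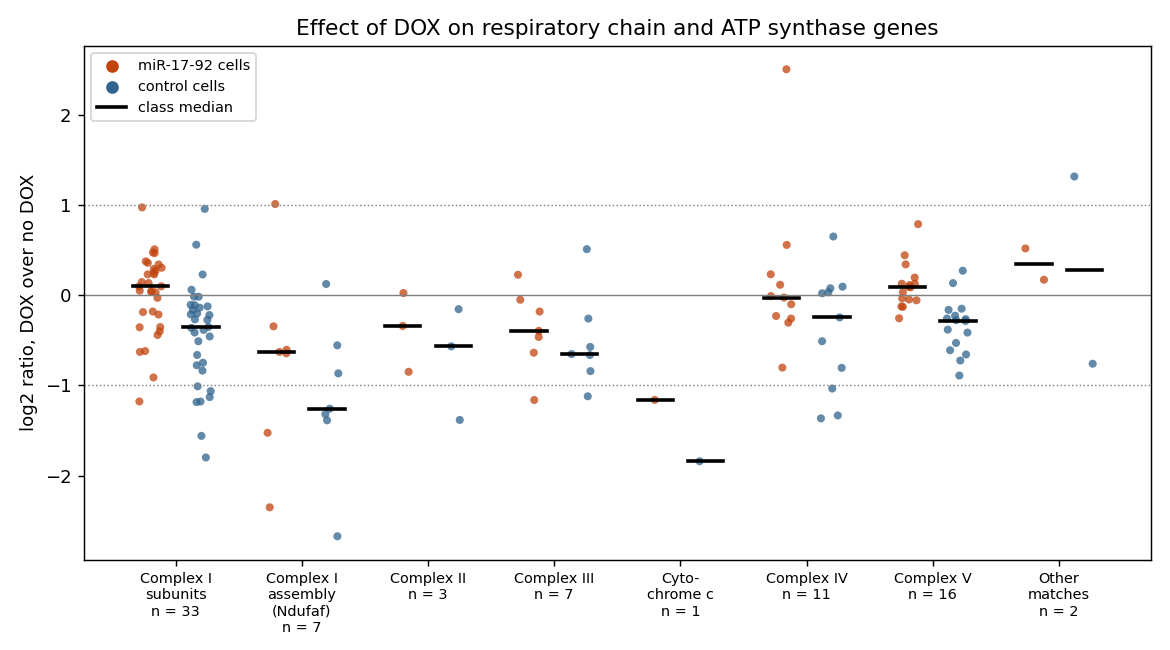
Log2 ratio of DOX over no DOX (vertical axis) for each of the 80 genes by class, miR-17-92 cells in red left of control cells in blue. Points are genes, black lines class medians, and dotted lines mark 2-fold, with Cox6a2, detected on 1 array, at the top of complex IV; the Ndufaf assembly factors and cytochrome c have the lowest medians in both lines, and the control median is below the miR-17-92 median in each class.

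With quantile normalization, the shift differed with signal level. The 55 genes with a mean log2 signal of at least 12 had a median of -0.28 in the control cells and the 25 dimmer ones -0.76. Under other scalings the dimmer genes were not lower than the whole set. Their control median was -0.57 with median scaling and -0.72 with the authors' values, beside -0.61 and -0.75 for all 80 genes. The 1277 analysed genes of the whole array at that bright level had a median of -0.06. Where 1 gene had 2 detected probes, the dimmer probe gave the lower ratio in 20 of 26 genes in the control cells and in 11 of 26 in the miR-17-92 cells. Over all 3502 genes with several detected probes these numbers were 1904 and 1878. The sign was the same on both probes for 23 of 26 genes in the control cells (88.5%, beside 84.2% of all such genes) and for 17 of 26 in the miR-17-92 cells (65.4%, beside 79.9%). Ndufc2, for example, gave -0.11 and -0.75 and Ndufb10 -0.27 and -0.93 in the control cells, brighter probe first.

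**Figure D3:**
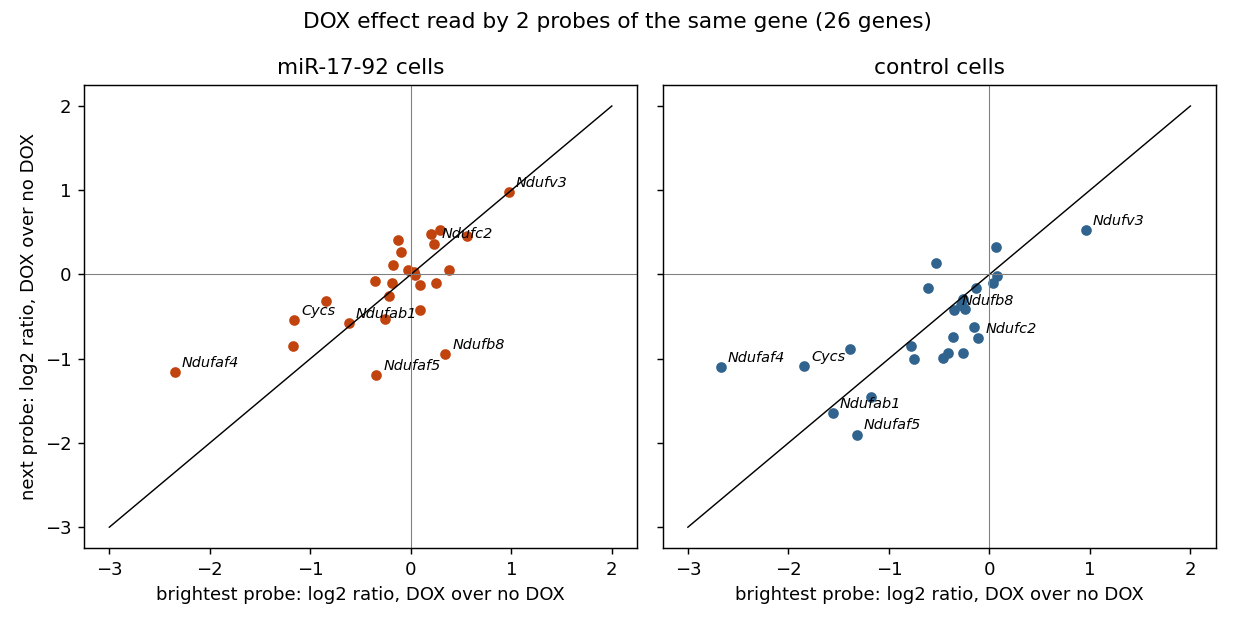
DOX effect as a log2 ratio from the brightest probe (horizontal axis) and the next probe (vertical axis) of 26 genes, miR-17-92 cells at left and control cells at right, with the line of equality. Most control points lie below the line, and Ndufaf4 and Cycs lie above it in both panels.

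Upstream sequences are shown for 6 genes, 5 with the letters of an NRF1 motif and 1 with an E-box, the site that MYC binds, to set the letters beside the responses. RefSeq promoters on GRCm38.p6 were matched by symbol for 68 of the 80 genes, with 73 starts, and the 250 bases before each start were searched on both strands. The motifs were CACGTG (E-box), the NRF1 core GCATGCGC, the full NRF1 motif, which is this core with GC before it, CCGGAAGT (GABP) and AAGATGGC (YY1). They were chosen with the results known, and the core after the Cycs sequence was seen. In the sequences, 5′ to 3′ on the strand of the gene, capitals mark the match.
Ndufaf4: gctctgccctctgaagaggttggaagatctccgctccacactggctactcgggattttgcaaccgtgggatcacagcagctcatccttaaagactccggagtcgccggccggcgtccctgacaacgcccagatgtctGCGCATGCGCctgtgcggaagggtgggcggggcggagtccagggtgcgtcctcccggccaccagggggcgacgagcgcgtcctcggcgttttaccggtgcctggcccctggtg
Cycs: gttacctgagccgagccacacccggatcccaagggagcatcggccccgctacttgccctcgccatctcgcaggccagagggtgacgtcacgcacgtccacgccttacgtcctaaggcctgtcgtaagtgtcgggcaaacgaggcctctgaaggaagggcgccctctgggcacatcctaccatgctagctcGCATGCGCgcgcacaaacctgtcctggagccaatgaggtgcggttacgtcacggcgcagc
Sdhb: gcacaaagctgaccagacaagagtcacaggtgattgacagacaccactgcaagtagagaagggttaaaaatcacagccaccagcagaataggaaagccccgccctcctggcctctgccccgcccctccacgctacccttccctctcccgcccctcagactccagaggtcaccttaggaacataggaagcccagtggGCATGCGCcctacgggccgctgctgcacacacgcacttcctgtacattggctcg
Cox6a1: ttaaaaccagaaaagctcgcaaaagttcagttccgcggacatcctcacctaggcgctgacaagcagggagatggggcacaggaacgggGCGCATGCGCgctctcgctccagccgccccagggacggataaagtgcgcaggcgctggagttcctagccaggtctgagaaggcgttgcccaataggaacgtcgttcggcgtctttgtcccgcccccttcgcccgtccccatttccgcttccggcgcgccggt
Ndufa11: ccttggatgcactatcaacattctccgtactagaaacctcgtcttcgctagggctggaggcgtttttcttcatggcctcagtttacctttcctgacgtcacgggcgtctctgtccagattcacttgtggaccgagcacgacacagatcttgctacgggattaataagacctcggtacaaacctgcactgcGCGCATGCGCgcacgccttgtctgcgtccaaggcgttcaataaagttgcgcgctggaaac
Ndufv1: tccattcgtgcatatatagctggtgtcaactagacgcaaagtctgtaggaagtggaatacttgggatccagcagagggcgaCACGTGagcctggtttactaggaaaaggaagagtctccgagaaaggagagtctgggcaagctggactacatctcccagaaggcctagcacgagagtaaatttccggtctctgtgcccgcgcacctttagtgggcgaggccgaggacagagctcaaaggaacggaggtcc

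These windows lie at chr4:24897833-24898082, plus strand (Ndufaf4), chr6:50566570-50566819, minus strand (Cycs), chr4:140961021-140961270, plus strand (Sdhb), chr5:115348959-115349208, minus strand (Cox6a1), chr17:56717512-56717761, plus strand (Ndufa11) and chr19:4012756-4013005, minus strand (Ndufv1). The NRF1 letters were in 6.85% of the 73 promoters of respiratory genes, beside 1.69% of the promoters of all analysed genes and 0.782% of all promoters. The core was in 13.7%, beside 4.63% and 2.26%. The E-box was in 8.22%, beside 8.72% and 6.02%, GABP letters in 4.11%, beside 6.59% and 2.88%, and YY1 letters in 1.37%, beside 2.18% and 1.56%. Genes with the same letters had different ratios. Of the 5 genes with the full NRF1 letters, Ndufaf4 was the lowest of all, Atp5k (-0.41) and Atp5g2 (-0.23) were slightly below 0 in the control cells, and Ndufa11 (-0.02) and Cox6a1 (0.03) were near 0. The 10 genes with the core had a median of -0.32 in the control cells, and the 58 without it -0.40. The 5 genes with an E-box, Atp5g3, Atp5l, Atp5pb, Ndufa7 and Ndufv1, lay between -0.51 and -0.20 there. A match of letters is a description of the window and shows no binding.

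The DOX effect in the miR-17-92 cells shows the same genes in the presence of the vector-borne cluster. With quantile normalization they were evenly spread around 0, with 40 above and 40 below (median 0.01). Of all analysed genes, 54.2% lay above and 45.8% below 0, with a median of 0.09. The median of the 80 genes took the other sign under other scalings, -0.15 with median scaling and -0.31 with the authors' values. The split was then 28 above and 52 below 0 with median scaling, and 17 and 63 with the authors' values. Set against the median of all genes, the 80 were at -0.08, at -0.41 with median scaling and at -0.24 with the authors' values. At least 2-fold lower were 5 of the 80, or 6.25%, beside 12.8% of all analysed genes, namely Ndufaf4, Ndufaf7, Ndufa5, Cycs and Uqcrq. At least 2-fold higher were Cox6a2 and Ndufaf3, 2.5% of the genes, beside 14.8% of all. With the authors' values the split was 1 higher and 7 lower.

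By class, the assembly factors had a median below those of the complexes (-0.63), beside complex III (-0.39) and complex II (-0.34). This order turned with scaling, complex III being at -0.62 and the assembly factors at -0.55 with median scaling, and at -0.77 and -0.69 with the authors' values. Complex I stood at 0.10, complex IV at -0.02 and complex V at 0.09. The signs of the complex I and V medians turned with scaling, to below 0 for complex I and to -0.10 for complex V with median scaling, and to -0.15 and -0.25 with the authors' values. Ndufa5, a Q module subunit, was 2.26-fold lower in both lines on its brightest probe. This probe read 11.80 with DOX against 12.98 without in the miR-17-92 cells and 11.95 against 13.13 in the control cells. A second, dimmer Ndufa5 probe gave -0.85 in the miR-17-92 cells, under 2-fold, and -1.45 in the control cells. Uqcrq, a small complex III subunit, read 8.45 with DOX against 9.61 without in the miR-17-92 cells and 9.06 against 9.71 in the control cells. It was among the genes with the lower ratio in the miR-17-92 cells, and its value there was under 2-fold with median scaling (-0.87), with the authors' values (-0.94) and without background correction (-0.96).

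Subtracting the DOX effect of the control cells from that of the miR-17-92 cells shows where the responses of the lines part. It uses the same 4 arrays as the comparisons above. Of the 80 genes, 71 lay above 0 and 9 below in this difference, beside 49.8% and 50.2% of all analysed genes. The median was 0.40, where that of all genes was -0.00. Over 7 alternatives for the scaling, source, background, offset, detection and probe choice, the median ran from 0.38 to 0.47. Above 0 were 70 to 74 of 80 genes, 69 of the 78 detected on every array and 76 of 89 without the detection filter. The spread per probe of this difference was 0.31, and 4 genes were 2-fold or more above 0, or 5%, beside 7.1% of all analysed genes. Of these 4, Cox6a2 was detected on 1 array only and has no measured difference. None was 2-fold below, beside 4.82%. Among genes with a mean log2 signal of at least 12, the 55 respiratory genes had a median of 0.35, with 49 above 0 and 6 below. The 1277 analysed genes at that level had a median of 0.06, with 717 above 0 and 560 below. Whatever the slide adds equally in both lines drops out.

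On their brightest probes, all 16 complex V genes were above 0 in this difference (median 0.46), from Atp5b (0.13) to Atp5md (0.85) and Atp5e (0.85). A second, dimmer Atp5a1 probe, detected on all 4 arrays, gave a difference of -0.67, beside 0.27 on the brightest. Its DOX ratios were -0.53 in the miR-17-92 cells and 0.14 in the control cells. All 3 genes of complex II were above 0 as well (median 0.23). Of complex I, 31 of 33 were above 0 (median 0.40), with Ndufb2 (1.10), Ndufab1 (0.94) and Ndufa12 (0.89) the highest and Ndufa6 (-0.20) and Ndufa10 (-0.14) below 0. Ndufb2 read 10.40 with DOX against 10.43 without in the miR-17-92 cells, and 9.61 against 10.73 in the control cells. Complex IV had a median of 0.52, with Cox7a2 (1.07) and Cox7b (1.06) past 2-fold and Cox6b1 (-0.10) and Ndufa4 (-0.03) below 0. Cox7a2 and Cox7b stayed just under 2-fold with median scaling, with the authors' values and without background correction, the lowest values being 0.94 for Cox7a2 and 0.88 for Cox7b.

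Complex III had a median of 0.11, which was 0.27 with median scaling and with the authors' values, with Uqcrc1 (0.61) highest and Uqcrq (-0.51) and Uqcrh (-0.28) below 0. The assembly factors had a median of 0.32, with Ndufaf5 (0.97), Ndufaf3 (0.89) and Ndufaf2 (0.78) above and Ndufaf7 (-0.27) and Ndufaf1 (-0.09) below 0. Cycs stood at 0.68. Cox7a2l was the lowest of the 80 genes at -0.80.

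**Figure D4:**
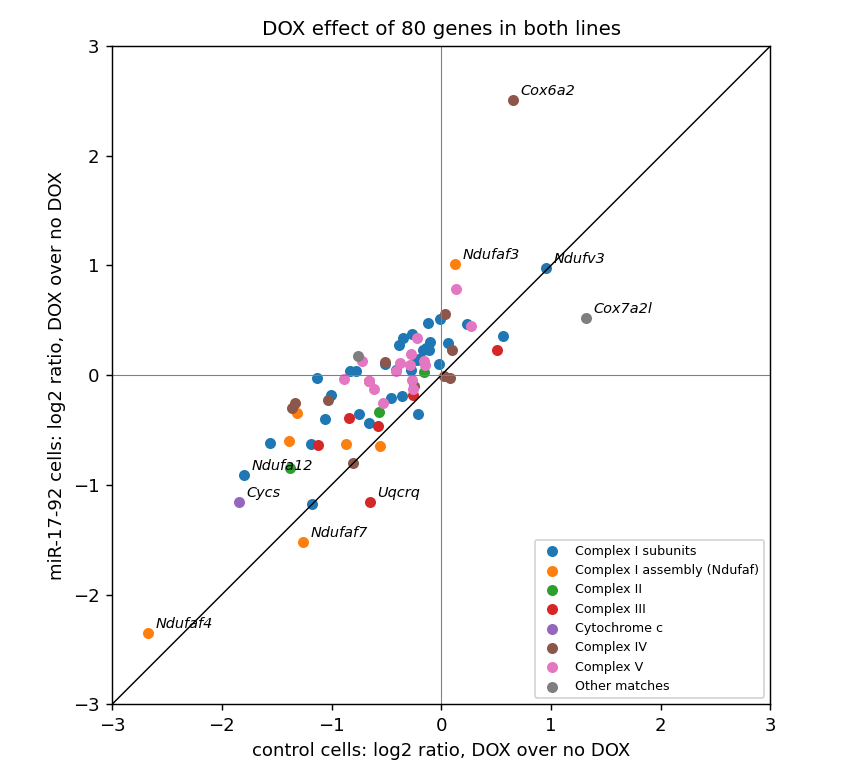
Log2 ratio of DOX over no DOX in the control cells (horizontal axis) and in the miR-17-92 cells (vertical axis) for 80 genes, coloured by class, with the line of equality. Of the 80 points 71 lie above the line; Cox7a2l and Uqcrq lie furthest below it. Cox6a2, at top, was detected only on the miR-17-92 DOX array.

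The lines were also compared directly. Without DOX, all 80 genes were within 2-fold between miR-17-92 cells and control cells, from Ndufb9 (-0.32) to Cox7a1 (0.58), with a median of 0.01. They split into 41 above and 39 below 0, beside 49.8% and 50.2% of all analysed genes. Past 2-fold were 1.18% of all analysed genes upward and 1.04% downward. With DOX, 73 of the 80 genes were higher in the miR-17-92 cells than in the control cells (median 0.39), and 7 lower, beside 50.1% and 49.8% of all analysed genes. At a mean log2 signal of at least 12, the median was 0.34 for the 55 respiratory genes, with 50 higher. It was 0.07 for all 1277 analysed genes at that level, with 727 higher. Cox6a2, Cox7a2 and Cox7b passed 2-fold, 3.75% of the genes beside 6.36% of all, and none was 2-fold lower, beside 4.83%. Cox6a2 counts here by its lower bound. Cox7b was under 2-fold in 4 alternatives, at 0.85 to 0.96, while Ndufab1 passed it with median scaling (1.01) and with the authors' values (1.03). Both comparisons rest on arrays of 1 slide each, and they share their arrays with the DOX comparisons. Ndufab1 was 1.96-fold, Ndufs5-ps 1.92-fold and Atp5md 1.91-fold higher in the miR-17-92 cells with DOX.

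Related genes that the symbol rule does not cover were described from lists of assembly factors, coenzyme Q enzymes and regulators. Their counts stand beside the shares of all analysed genes, 12.8% 2-fold lower and 14.8% higher in the miR-17-92 cells, and 18.0% and 19.9% in the control cells. Counts, medians and orders of these lists are with quantile normalization, and some of them changed with scaling. Of 10 analysed coenzyme Q synthesis genes, 4 stood 2-fold or more below 0 in the control cells and none was 2-fold higher (median -0.77), with 2 lower in the miR-17-92 cells (median -0.70). These 2, Coq4 and Coq7, were under 2-fold in the miR-17-92 cells with median scaling, at -0.94 and -0.91. With the authors' values Coq4 was under it there (-0.93) and Coq5 past it (-1.02). Coq7, a hydroxylase of the pathway, had ratios of -1.12 in the miR-17-92 cells and -2.05 in the control cells, and Coq4 of -1.30 in the miR-17-92 cells and -1.95 in the control cells. Highest in the control cells were Coq10a (-0.06 in the miR-17-92 cells and 0.03 in the control cells) and Coq10b (-0.84 in the miR-17-92 cells and 0.38 in the control cells), which encode coenzyme Q binding proteins. Of 28 assembly factors of complexes II to V, 8 were at least 2-fold lower and 1 higher in each line (medians -0.31 in the miR-17-92 cells and -0.38 in the control cells). With median scaling Uqcc1 (-0.91), Atpaf2 (-0.92) and Tmem70 (-0.83) were under 2-fold in the miR-17-92 cells. In the control cells Taco1 (-0.66) and Tmem70 (-0.83) were then under it and Uqcc2 (-1.15) past it. Ordered by the control cells, they ran from Lrpprc (-1.49 in the miR-17-92 cells and -1.80 in the control cells), which stabilises mitochondrial messenger RNA, and Bcs1l (-1.26 in the miR-17-92 cells and -1.73 in the control cells), which inserts the iron-sulphur protein of complex III, to Cox14 (0.19 in the miR-17-92 cells and 0.68 in the control cells) and Cox20 (1.24 in the miR-17-92 cells and 1.21 in the control cells), both complex IV factors. In the miR-17-92 cells Sco1, a copper chaperone of complex IV, was the lowest at -1.57.

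Of 6 complex I assembly factors outside the Ndufaf names, 2 were 2-fold lower in each line. Foxred1, 1 of those in the miR-17-92 cells at -1.09, was under 2-fold there with median scaling (-0.89) and with the authors' values (-0.998). Lowest in the control cells were Ecsit (-1.20 in the miR-17-92 cells and -1.38 in the control cells) and Acad9 (-0.91 in the miR-17-92 cells and -1.37 in the control cells), and highest Timmdc1 (0.37 in the miR-17-92 cells and 0.24 in the control cells) and Tmem186 (-0.30 in the miR-17-92 cells and 0.35 in the control cells). Of 15 regulators of mitochondrial genes, 5 stood 2-fold or more below 0 in the miR-17-92 cells and 3 in the control cells (medians -0.50 in the miR-17-92 cells and -0.55 in the control cells). The count in the miR-17-92 cells rested on the scaling. Ppargc1b (-0.85), Tfb2m (-0.81) and Ssbp1 (-0.94) were under 2-fold there with median scaling. With the authors' values Ppargc1b (-0.92) and Tfb2m (-0.91) were under it, and Ssbp1 (-1.06) and Polrmt (-1.05) past it. Pprc1, a coactivator related to PGC-1, was lowest at -3.06 in the miR-17-92 cells and -3.57 in the control cells. With quantile normalization it was followed by Twnk, the mitochondrial DNA helicase, at -1.40 in the miR-17-92 cells and -1.55 in the control cells. With the authors' values Twnk stood at -1.08 in the control cells, above Ppargc1b at -1.14. Nrf1, the gene of the factor whose letters were searched above, was highest in both lines, at 0.83 in the miR-17-92 cells and 0.84 in the control cells. Mterf3, next in the control cells with quantile normalization, stood at -0.06 in the miR-17-92 cells and 0.36 in the control cells. Under the other scalings Polg was above Mterf3 in the control cells. The values were 0.69 and 0.45 with median scaling, and 0.30 and 0.24 with the authors' values.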

How the data were processed

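RNA of 4 cultures was read on Illumina bead arrays. GenomeStudio was used, per the submitters' processing notes, which give no version. The deposited raw table, per the file headers, gives each probe's bead intensity on each array and its detection p-value against negative control beads. Detection columns carry slide positions and were linked to the signal column that orders them with 0 breaks. The authors' processed intensity, deposited in a second table, is a linear rescaling of each array.

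From these, limma 3.58.1 in R 4.3.3 corrected the background (normexp from detection p-values, offset 16), followed by log2 and quantile normalization. Of 45281 probes 34885 had 1 gene. The brightest detected probe stood for a gene. Each fold against an undetected side is a lower bound, the bright array over the dim array's lowest detected signal, or over the dim probe's signal where that is higher. Arrays have no read depth, and their number limits the precision. With 1 array per group no comparison was tested, and counts at 2-fold and medians are given. A model of a DOX effect shared by both lines, which would leave 1 residual degree of freedom, was not run. Alternatives changed the scaling, the source of the values, the background correction, the offset, the detection filter, the probe choice and the gene set.

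The members, lists and motifs were chosen with earlier results of these data known. Genes were named by a rule on the 3 lowest and 3 highest control DOX effects and the 2 highest and 2 lowest differences of each class, with complex II, Cycs, Cyc1, assembly factors and paralogous subunits. Per-array values stand where the text turns on them, ratios otherwise.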

Additional observations from a re-analysis of the deposited data

Results flagged for a closer look

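Ndufb8, a subunit of the complex I P module, had DOX effects of opposite sign in the lines, each larger than the spread per probe. It read 14.82 with DOX against 14.48 without in the miR-17-92 cells, and 14.12 against 14.47 in the control cells, a difference of 0.69. This difference was not tested, with 1 array per group. A second, dimmer Ndufb8 probe was below 0 in both lines, at -0.95 in the miR-17-92 cells and -0.43 in the control cells, so the opposite sign rests on 1 probe. It also rests on quantile normalization, since the brighter probe gave -0.15 in the miR-17-92 cells and -0.94 in the control cells with the authors' values. In all, 28 of the 80 genes were above 0 in the miR-17-92 cells and below 0 in the control cells, 21 with median scaling and 13 with the authors' values.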

How the results depend on the processing

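Of 340 recomputed counts and medians, 322 kept their value within 1.5 times or within the spread per probe. Many medians were themselves no larger than this spread, so a median could turn sign and still count as kept. In the miR-17-92 cells that of all 80 genes did so, from 0.01 to -0.31 with the authors' values. That of complex I went from 0.10 to -0.15. The tally therefore says little about signs near 0. With the authors' processed values the median of the 80 genes in the control cells was -0.75, and the class medians there were -0.72 for complex I, -1.04 for complex III, -0.64 for complex IV and -0.73 for complex V. In the miR-17-92 cells those of complexes III and V were -0.77 and -0.25. With these values 25 genes were at least 2-fold lower in the control cells and 0 were 2-fold higher, also 0 among structural subunits only. The count 2-fold higher in the miR-17-92 cells was 1 with the authors' values, without background correction, with offset 50, with detection on all 4 arrays and among structural subunits, where 2 were 2-fold lower. The count 2-fold above 0 in the difference was 2 with median scaling, with the authors' values and without background correction. The cause was not tested, apart from the smaller sets by construction. Of 1600 single-gene values, 20 lost and 14 gained a 2-fold ratio, and 49 took the other sign, 42 of them with median scaling or the authors' values, all under 2-fold on both sides. Over all genes, the share higher among 2-fold DOX calls was 53.6% in the miR-17-92 cells and 52.4% in the control cells, against 66.3% and 62.2% with median scaling and 41.3% and 40.1% with the authors' values. With 1 array per group no paired analysis was made, and a model of a DOX effect common to both lines was not run. Dim probes near background and the brightest probes near the top of the scale limit their ratios.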

Other observations

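The probes for 3 core subunits of active respiratory complexes were not detected on any array, namely Sdha, the flavoprotein of complex II, Ndufs1, the largest iron-sulphur subunit of complex I, and Uqcrfs1, the Rieske protein of complex III. Ndufaf6 was undetected as well. Other subunits of the same complexes were detected on all 4 arrays, and the cause was not tested.

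Some related genes ran against the difference seen in most subunits. Coq10b stood at -1.22 and Cox15, which makes haem A for complex IV, at -1.02 when the control DOX effect was taken from that of the miR-17-92 cells. Cox15 read 9.25 with DOX against 10.51 without in the miR-17-92 cells, and 10.65 against 10.89 in the control cells. Tfb2m, a factor of mitochondrial transcription, was at -0.65, while its relative Tfb1m was at 0.95. These genes were picked after their values were seen.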
